A study of Danio rerio with 6 samples.

Results

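The genes examined here were *mthfd1l*, *phgdh* and *hal*, which act in one-carbon supply through formate release, serine synthesis and histidine breakdown. They are 3 of the 31388 gene loci in the count table, and were found by the symbol and Ensembl identifier pairs of the study's gene tables. The 3 genes were selected on their higher counts in the mutant larvae of this same comparison, so their levels are given as a description with no test. All 3 passed the filter on low counts, as did 26544 loci in all.

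Counts were taken from whole zebrafish larvae in 6 pools of 20 animals, all at 5 days post fertilization (dpf) and circadian time ZT03. They comprised 3 pools of *fdx1b* mutants (*fdx1b*-/-) and 3 of their siblings, which the study describes as wild type. *fdx1b* encodes a mitochondrial ferredoxin that passes electrons to enzymes of steroid synthesis, and its loss leaves the larvae short of glucocorticoids. According to the methods, mutants were picked at an earlier stage by their impaired visual background adaptation, a response that itself needs glucocorticoids, and the pools are biological replicates. All 6 pools are labelled CTR, the study's term for vehicle controls in its drug experiments, and none is labelled with a drug. Whether these pools received vehicle is not stated.

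One-carbon metabolism moves single carbons on folate carriers to the synthesis of purines, thymidylate and methionine. Phgdh, phosphoglycerate dehydrogenase, catalyses the first step from glycolysis to serine, the main carbon donor in most vertebrate tissues. Mthfd1l, a mitochondrial formyltetrahydrofolate synthetase, releases formate that leaves the mitochondrion and is loaded onto folate again in the cytosol by Mthfd1. Hal, histidine ammonia-lyase, opens histidine breakdown in liver and skin, a route in which Ftcd hands a formimino group to folate.

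The 6 libraries held 18247332 to 49908095 exonic counts. A count of 3 therefore equals 0.0598 to 0.165 CPM, a count put on a common library total after TMM scaling, and this limit is set by counting error alone. The targeted gene *fdx1b* had 30, 10 and 27 counts in siblings 1 to 3 and 29, 27 and 42 in mutants 1 to 3. Its transcript was thus not lower in the mutants, at 0.38 ± 0.25 (SE) on the log2 scale and an adjusted p of 0.421 by edgeR's quasi-likelihood test, and exonic counts of this gene do not check the labels.

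*mthfd1l* (ENSDARG00000042221) changed level most among the 3 genes. Its normalized counts were 6.12, 6.28 and 10.5 CPM in siblings 1 to 3 and 48.8, 53.8 and 41.8 CPM in mutants 1 to 3. Every mutant pool lay far above every sibling pool, and the lowest mutant value was 3.99 times the highest sibling value. The group means were 7.62 ± 2.46 CPM (SD, n = 3) and 48.1 ± 6.04 CPM (SD, n = 3), a ratio of 6.31. The fitted log2 fold change of 2.64 ± 0.17 (SE) ranked 2 from the largest among the 26544 tested genes. These values rest on 114 to 2206 counts per library, and counting alone gives a relative SD of 9.37% at the smallest of them.

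*phgdh* (ENSDARG00000001873) had 23.4, 27.1 and 31.2 CPM in siblings 1 to 3 and 48.2, 43.7 and 44.5 CPM in mutants 1 to 3. The groups did not overlap, and the lowest mutant pool stood at 1.40 times the highest sibling pool. How many of all tested genes separate in this way is not given here, so the gap is only described. The means were 27.2 ± 3.92 CPM (SD, n = 3) in siblings and 45.5 ± 2.38 CPM (SD, n = 3) in mutants, a ratio of 1.67. The log2 fold change was 0.74 ± 0.09 (SE), at rank 255 of all tested genes.

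*hal* (ENSDARG00000017444) showed the smallest difference. Siblings 1 to 3 had 19.6, 18.6 and 20.4 CPM, and mutants 1 to 3 had 24.6, 27.5 and 29.1 CPM. The sibling pools lay close together and below all mutant pools, but the gap was narrow, with the lowest mutant at 1.21 times the highest sibling. The means of 19.5 ± 0.916 CPM and 27.1 ± 2.27 CPM (SD, n = 3 each) gave a ratio of 1.39. The log2 fold change was 0.47 ± 0.07 (SE), at rank 891.

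**Figure D1:**
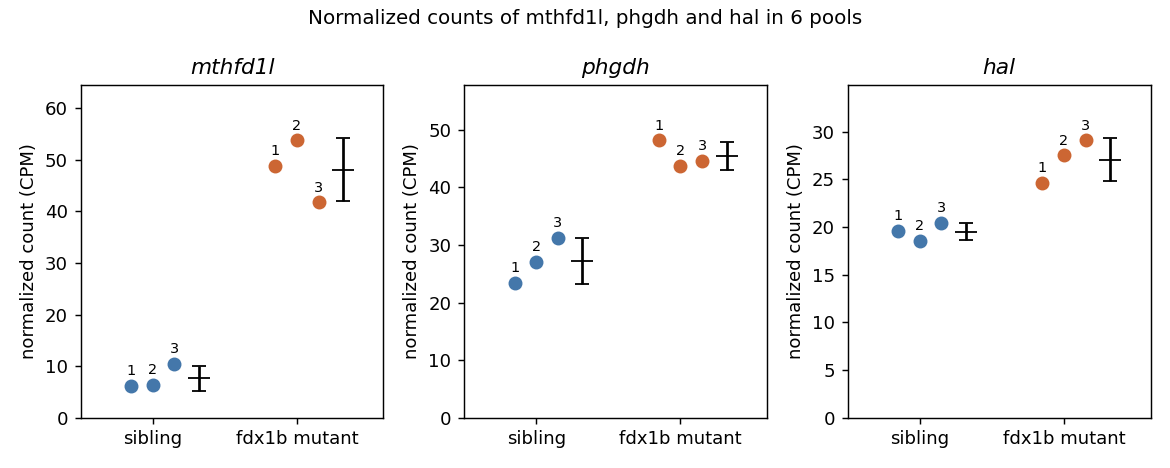
Normalized counts (CPM, linear axes from 0) of *mthfd1l*, *phgdh* and *hal* in each pool, with replicate numbers beside the points and the mean and SD of each group (n = 3) beside them. The 3 mutant pools lie above the 3 sibling pools for each gene, by a wide gap for *mthfd1l* (lowest mutant over highest sibling 3.99) and a narrow one for *hal* (1.21).

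The pools with the highest values were not the same from gene to gene. Among the mutants, *mthfd1l* was highest in replicate 2, *phgdh* in replicate 1 and *hal* in replicate 3. Among the siblings, replicate 3 was highest for all 3 genes, and it was also the highest sibling for 34.1% of all tested genes and for 70.7% of the 164 genes called higher. Sibling 3 was thus the highest sibling for many of the genes that were higher in mutants. For *mthfd1l*, *phgdh* and *hal* it still lay below every mutant pool. The coefficient of variation within groups was 32.3% in siblings and 12.6% in mutants for *mthfd1l*, 14.4% and 5.24% for *phgdh*, and 4.69% and 8.37% for *hal*. Relative to all tested genes, the spread within groups on the log2 scale lay at percentile 85.4 for *mthfd1l*, 60.5 for *phgdh* and 37.1 for *hal*, so the gene with the largest difference was also the most variable of the 3.

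A gene was called where the adjusted p of edgeR's quasi-likelihood test, corrected over all tested genes by the method of Benjamini and Hochberg, was at most 0.01 and the log2 fold change at least 0.25 in size. All 3 genes were past this threshold, as their selection on this contrast entails, beside 164 of 26544 genes called higher (0.618%) and 132 called lower (0.497%), 296 in all (1.12%). The difference for *mthfd1l* passed in each of the 13 alternative settings, with log2 fold changes of 2.45 to 2.96. That of *phgdh* passed in 11 of 13 (0.63 to 0.87) and was lost without mutant 1 or mutant 3. That of *hal* passed in 8 of 13 (0.41 to 0.53) and was lost without sibling 1, mutant 2 or mutant 3, with the replicate number as a block, and with all libraries thinned to the smallest total. The direction was the same in all settings for all 3 genes. All these fits reuse the libraries on which the genes were selected, so they describe how the call moves with the setting and test nothing.

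**Figure D2:**
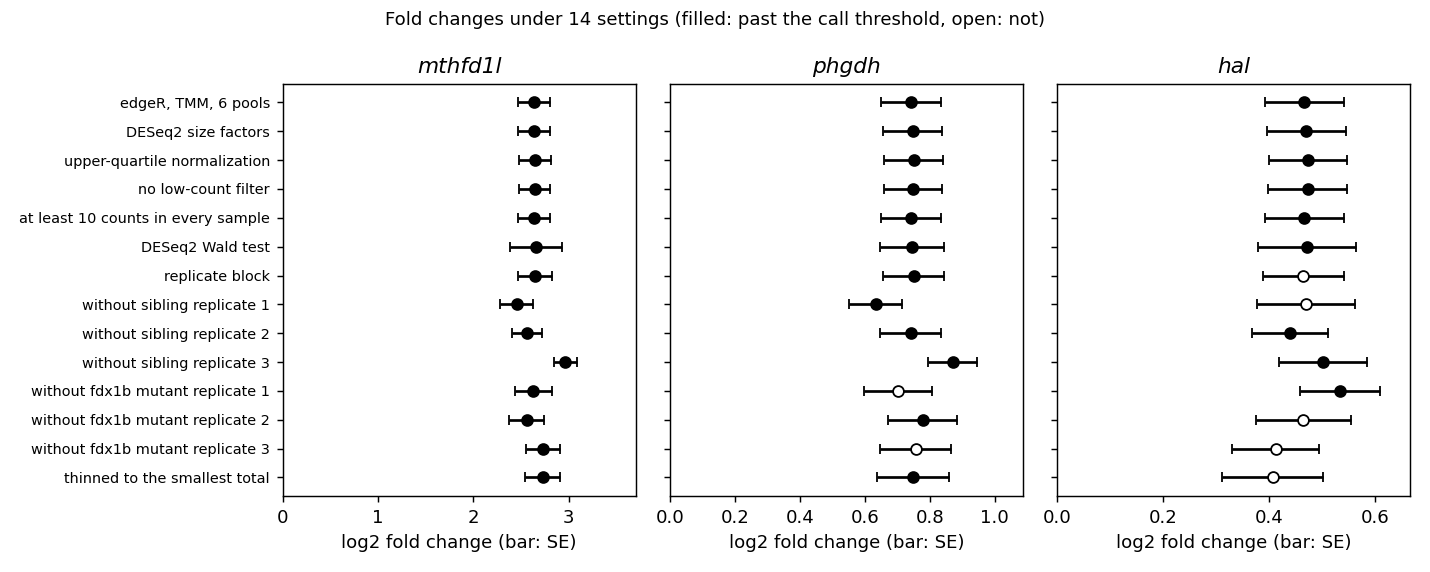
Fitted log2 fold change (x axis, bar: SE) of *mthfd1l*, *phgdh* and *hal* under the 6-pool fit and 13 alternatives (rows). Filled points passed the call threshold and open points did not. The value of *mthfd1l* stays between 2.45 and 2.96 and is filled throughout, whereas *hal* stays between 0.41 and 0.53 and is open in 5 alternatives.

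Since longer transcripts collect more reads, levels were compared between genes only as CPM per kilobase of exon (RPKM). On this scale *mthfd1l* was the lowest of the 3 genes in siblings, at 0.974, 1.00 and 1.66 RPKM, and had 7.76, 8.56 and 6.64 RPKM in mutants. *hal* was at 8.69, 8.22 and 9.02 RPKM in siblings and 10.9, 12.2 and 12.9 RPKM in mutants, and *phgdh* at 9.90, 11.5 and 13.2 RPKM and then 20.4, 18.5 and 18.9 RPKM. The order *mthfd1l* below *hal* below *phgdh* was therefore kept within every pool of both genotypes. Across pools, the sibling ranges of *hal* and *phgdh* did not touch, with a highest value of 9.02 RPKM for *hal* and a lowest of 9.90 RPKM for *phgdh*. The mean level of *mthfd1l* moved from percentile 22.4 of all tested genes in siblings to percentile 66.6 in mutants, that of *phgdh* from 78.1 to 88.0, and that of *hal* from 70.2 to 79.2.

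The proportions between the 3 genes differed between the genotypes as well. The level of *mthfd1l* per length was 0.0872 to 0.126 of that of *phgdh* in siblings and 0.352 to 0.462 in mutants. Relative to *hal* it was 0.112 to 0.184 in siblings and 0.516 to 0.713 in mutants. Neither pair of ranges overlapped. The ratio of *phgdh* to *hal* was 1.14 to 1.46 in siblings and 1.46 to 1.87 in mutants, with sibling 3 and mutant 3 at the same value after rounding.

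The enzymes next to Phgdh were measured as its closest context. Serine is made in 3 steps, by Phgdh, the aminotransferase Psat1 and the phosphatase Psph. *psat1* had 6.55, 4.86 and 7.53 RPKM in siblings and 8.93, 8.74 and 9.04 RPKM in mutants. Its mutant pools all lay above its sibling pools, but at 0.47 ± 0.12 (SE) on the log2 scale and an adjusted p of 0.0561 by edgeR's quasi-likelihood test it was not called. *psph* was nearly level, at 5.57, 5.36 and 5.80 RPKM against 5.83, 5.60 and 5.38 RPKM, and its log2 fold change was 0.00 ± 0.08 (SE). The ratio of *phgdh* to *psph* per length was accordingly 1.78 to 2.28 in siblings and 3.30 to 3.51 in mutants, whereas that of *phgdh* to *psat1* overlapped, with 1.51 to 2.36 in siblings and 2.09 to 2.28 in mutants.

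The hydroxymethyltransferases that split serine into glycine and a folate-bound carbon were not called. The log2 fold change of the cytosolic *shmt1* was -0.03 ± 0.06 (SE) and that of the mitochondrial *shmt2* was 0.23 ± 0.07 (SE), at an adjusted p of 0.0769 in edgeR's quasi-likelihood test. Of the 5 genes of serine and glycine synthesis, *phgdh* was thus the only one called by edgeR's quasi-likelihood test, as its selection entails. The Wald test of DESeq2 called *psat1* higher as well (adjusted p 0.00488). In the other alternatives *psat1* was not called. Over the 5 genes the median log2 fold change was 0.23, and 0.11 without *phgdh*, against a median of -0.0028 over all tested genes.

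Among 7 genes of serine and glycine breakdown, *gldc*, the decarboxylase of the mitochondrial glycine cleavage system, was called higher. It had 110.7, 109.8 and 113.5 CPM in siblings and 154.1, 149.5 and 165.2 CPM in mutants. The sibling values of *gldc* lay within a few CPM of each other and well below all mutant values, and the log2 fold change was 0.49 ± 0.06 (SE), at an adjusted p of 0.00135 in edgeR's quasi-likelihood test. The other subunits of the same system did not pass, with log2 fold changes of 0.06 for *amt*, 0.08 for *gcsha*, 0.21 for *gcshb* and 0.02 for *dldh*.

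Of 8 transporters of serine, glycine and other neutral amino acids, *sfxn2*, a member of the sideroflexin family of mitochondrial carriers, was called higher. Its mean rose from 39.4 ± 2.54 to 53.8 ± 2.70 CPM (SD, n = 3 each), a log2 fold change of 0.44 ± 0.06 (SE). *sfxn1*, whose human counterpart carries serine into mitochondria, was not called, at -0.11 ± 0.11. At a plain adjusted p of at most 0.05, *slc1a4* (0.34) and *slc38a5a* (0.30) would also be higher and *slc1a5* (-0.25) lower. Both *sfxn2* and *slc38a5a* were put on this list after they had been seen in a table ordered by the outcome, so neither is independent of it. The transporters did not lean one way, with 4 of 8 above 0 and a median of -0.02.

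The genes downstream of *hal* follow it in the order of the pathway. *uroc1*, urocanate hydratase, had 14.9, 14.3 and 16.1 RPKM in siblings and 16.7, 17.5 and 18.3 RPKM in mutants. *amdhd1*, imidazolonepropionase, had 4.21, 3.90 and 3.72 RPKM and then 4.58, 5.05 and 5.62 RPKM. *ftcd*, the last enzyme and the one that links the route to folate, had 14.8, 15.1 and 19.3 RPKM and then 22.0, 23.9 and 25.7 RPKM. For each of these genes the mutant pools lay above the sibling pools, as they did for *hal*. The share of all tested genes that separate in this way is not given here, so the separation is a description only. None of these neighbours of *hal* passed the threshold in edgeR's quasi-likelihood test, with adjusted p values of 0.071 for *uroc1*, 0.0706 for *amdhd1* and 0.0129 for *ftcd*. *ftcd* was called higher with no filter on low counts (0.00795), with the replicate number as a block (0.00416), in thinned libraries (0.00992), without sibling 2 (0.00887) or sibling 3 (0.000515), all adjusted p values of edgeR's quasi-likelihood test, and by the Wald test of DESeq2 (1.15e-05). With the replicate block and in thinned libraries *ftcd* was called and *hal* was not, and in the other settings just named both were called. The log2 fold changes were 0.21 ± 0.06, 0.36 ± 0.10 and 0.54 ± 0.10 (SE).

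The ratio of *hal* to *uroc1* per length was 0.562 to 0.584 in siblings and 0.652 to 0.703 in mutants. The ratio of *hal* to *ftcd* overlapped, with 0.467 to 0.586 in siblings and 0.495 to 0.509 in mutants. Histidine has other uses, and the genes measured for those, *hdc* and *hars*, were not called. *carns1*, also on the list, matched no locus and was not tested. *hdc*, which makes histamine, had a log2 fold change of -0.61 ± 0.23 (SE), at an adjusted p of 0.165 in edgeR's quasi-likelihood test from only 3.87 CPM in siblings and 2.43 CPM in mutants, and *hars*, the histidyl-tRNA synthetase, had -0.00 ± 0.05. The median over the 5 histidine genes other than *hal* was 0.21.

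*mthfd1l* stood apart from the rest of the mitochondrial folate enzymes. *mthfd2*, the dehydrogenase and cyclohydrolase that precedes it, had 8.03, 7.53 and 8.27 RPKM in siblings and 7.30, 8.09 and 8.19 RPKM in mutants. Its isoenzyme *mthfd2l* had 1.38, 1.26 and 1.19 RPKM against 1.32, 1.42 and 1.19 RPKM. *aldh1l2*, which oxidises the same formyl folate to carbon dioxide, had 6.28, 6.34 and 5.60 RPKM against 6.57, 6.45 and 6.56 RPKM. The genotypes overlapped for *mthfd2* and *mthfd2l*, while the mutant pools of *aldh1l2* lay just above its sibling pools. None was called, with log2 fold changes of -0.02 ± 0.07, 0.03 ± 0.12 and 0.11 ± 0.07 (SE). The ratio of *mthfd1l* to *mthfd2* per length was 0.121, 0.133 and 0.201 in siblings and 1.06, 1.06 and 0.811 in mutants. By the group mean *mthfd1l* was the lowest of 9 mitochondrial folate genes in siblings, and the 5th from the lowest in mutants. In siblings its range overlapped that of *mthfd2l*, and in sibling 3 it was the higher of the pair.

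The remaining mitochondrial folate genes included *sardh*, sarcosine dehydrogenase, which was called higher. It had 30.1, 30.5 and 34.1 CPM in siblings and 46.4, 43.5 and 44.4 CPM in mutants, with no overlap and a log2 fold change of 0.50 ± 0.06 (SE), at an adjusted p of 0.00138 in edgeR's quasi-likelihood test. Its neighbour in choline breakdown, *dmgdh*, had 0.23 ± 0.06 and was not called. *mtfmt*, which formylates the mitochondrial initiator tRNA, had 0.20 ± 0.09, and 2 loci named for the folate carrier SLC25A32 had 0.18 and 0.16. Without *mthfd1l*, 1 of 8 genes was called higher, against 0.618% of all tested genes. Of these 8, 7 lay above 0, against 49.3% of all tested genes, and the median was 0.17.

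**Figure D3:**
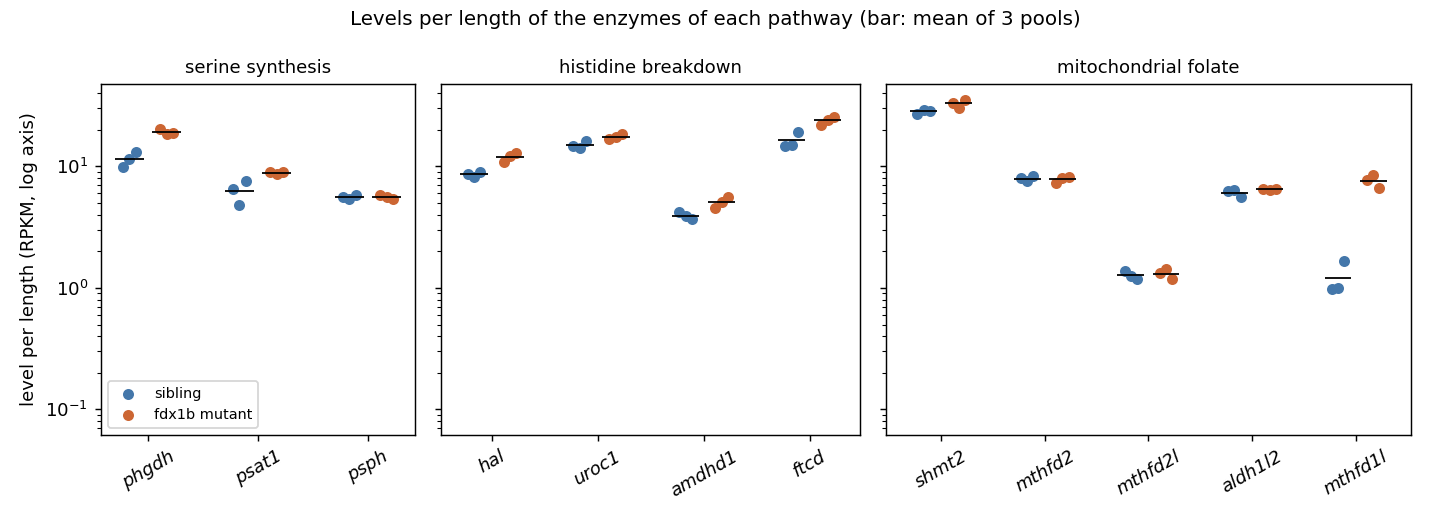
Levels per length (RPKM, log axis) of the enzymes of serine synthesis, histidine breakdown and the mitochondrial folate branch in 3 sibling and 3 mutant pools, with a bar at each group mean. *mthfd1l* moves from a range that overlaps *mthfd2l* in siblings (0.974 to 1.66 RPKM) to one that overlaps *mthfd2* in mutants (6.64 to 8.56 RPKM), while *psph*, *mthfd2* and *mthfd2l* keep overlapping ranges.

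On the cytosolic side, formate is loaded onto folate by Mthfd1, for which the table holds 2 loci. *mthfd1a* had 24.6, 24.3 and 29.1 CPM in siblings and 57.5, 54.4 and 56.9 CPM in mutants. The genotypes were widely separated, and the log2 fold change was 1.11 ± 0.07 (SE), at an adjusted p of 1.19e-05 in edgeR's quasi-likelihood test. The second locus is named MTHFD1 without a paralog letter, and is called *mthfd1b* here. It had means of 75.3 ± 6.23 and 81.8 ± 3.13 CPM (SD, n = 3 each) and was not called, with a log2 fold change of 0.11 ± 0.06. The level of *mthfd1a* per length rose from 0.286 to 0.342 of that of *mthfd1b* in siblings to 0.631 to 0.642 in mutants. The ratio of *mthfd1l* to *mthfd1a* was 0.158 to 0.228 in siblings and 0.466 to 0.628 in mutants, so the mitochondrial gene differed more than its cytosolic counterpart.

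All 11 cytosolic folate genes had a log2 fold change above 0, against 49.3% of all tested genes, with a median of 0.14. Of these, *mthfd1a* was the only one called. Small values were found for the dihydrofolate reductase gene *dhfr* (0.11), for the polyglutamation enzyme *fpgs* (0.06) and for the transporters *slc19a1* (0.14) and *slc46a1* (0.09). The thymidylate synthase gene *tyms* had 0.31 ± 0.11 (SE), at an adjusted p of 0.154 in edgeR's quasi-likelihood test.

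In the methionine and homocysteine list, *bhmt*, which remethylates homocysteine with a methyl group of betaine and not of folate, was called higher. It had 459.6, 447.7 and 598.8 CPM in siblings and 901.5, 816.0 and 865.2 CPM in mutants. Sibling 3 was again the nearest to the mutants, and the log2 fold change was 0.78 ± 0.10 (SE), at an adjusted p of 0.0018 in edgeR's quasi-likelihood test. The folate-dependent methionine synthase gene was not called. This gene, *mtr*, had 30.4, 31.8 and 29.2 CPM in siblings and 26.1, 23.9 and 23.6 CPM in mutants, so all mutant pools were lower, by -0.31 ± 0.06 (SE) on the log2 scale and with an adjusted p of 0.0234 in edgeR's quasi-likelihood test, short of a call. Of the 9 genes, 4 lay above 0 and the median was -0.04.

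Of 5 purine enzymes that use formyl folate or lie beside those steps, 3 were called higher, against 0.618% of all tested genes. This list was written with *atic* and *paics* known to be higher, so its count restates that choice in part. *atic*, which uses a formyl folate for the last carbon of the purine ring, had 33.4, 34.7 and 40.9 CPM in siblings and 96.3, 89.4 and 102.7 CPM in mutants. *paics*, which uses no folate, had 66.1, 54.5 and 79.1 CPM in siblings and 360.2, 318.8 and 362.1 CPM in mutants. *ppat*, which opens the pathway, had 19.7, 17.4 and 22.2 CPM in siblings and 30.8, 30.6 and 29.8 CPM in mutants. In each case the mutants lay above all siblings, with log2 fold changes of 1.40 ± 0.08 for *atic*, 2.38 ± 0.12 for *paics* and 0.61 ± 0.08 for *ppat*. The other formyl folate enzyme of the pathway, *gart*, had 0.24 ± 0.10 (SE), at an adjusted p of 0.227 in edgeR's quasi-likelihood test, and *pfas* had 0.01.

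Over the 8 lists together, 60 of 63 symbols were tested, of which 11 were called higher and 0 lower. Without *mthfd1l*, *phgdh* and *hal*, 8 of 57 (14%) were called higher, against 0.618% of all tested genes, and the median log2 fold change was 0.11 against -0.0028. At an adjusted p of at most 0.05 by edgeR's quasi-likelihood test with no limit on the fold, 13 of the 57 were higher and 3 lower (*mtr*, *slc1a5* and *mat2aa*), against 1.94% and 1.95% of all tested genes, and the Wald test of DESeq2 called 13 of the 57 higher and 1 lower, *mtr*, against 2.15% and 2.18% of the genes it tested. At an unadjusted p under 0.05 in edgeR's quasi-likelihood test, 23 of the 57 were higher and 6 lower, against 9.21% and 10.4% of all tested genes. The lists were written with earlier results of these libraries known, *atic*, *paics* and *bhmt* among them, so the count is a description of these lists. Without *sfxn2* and *slc38a5a* as well, 7 of 55 (12.7%) were called higher, and 11 were higher at the looser threshold. The count of 11 depended on single pools. It was 5 without sibling 1, 5 without mutant 1 and 4 without mutant 3. The same fits called 49, 51 and 50 of all tested genes higher, in place of 164. The one-carbon genes called in every setting were *mthfd1l*, *mthfd1a*, *atic* and *paics*. The calls of *gldc*, *sardh* and *bhmt* were lost without sibling 1, mutant 1 or mutant 3, at adjusted p values of 0.0105 to 0.0194 in edgeR's quasi-likelihood test. Those of *sfxn2* and *ppat* were lost without these pools and also without mutant 2, at 0.011 to 0.0262 in the same test. Not all of these calls were kept in thinned libraries either, where 9 one-carbon genes were called higher, *ftcd* among them. The directions of *gldc*, *sardh*, *bhmt*, *sfxn2* and *ppat* were kept throughout. Sibling 3 was the highest sibling for all 11 called genes. Some tissue marker lists, described below, also leaned up at an adjusted p of at most 0.05 in edgeR's quasi-likelihood test. Of 12 liver markers 4 were higher and 1 lower, with a median of 0.15. Of 6 muscle markers 3 were higher and 0 lower, with a median of 0.26. Intestine, pancreas and photoreceptor markers had 0 in either direction, and skin markers 0 higher and 1 lower. The medians of these lists were -0.28 to -0.04.

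**Figure D4:**
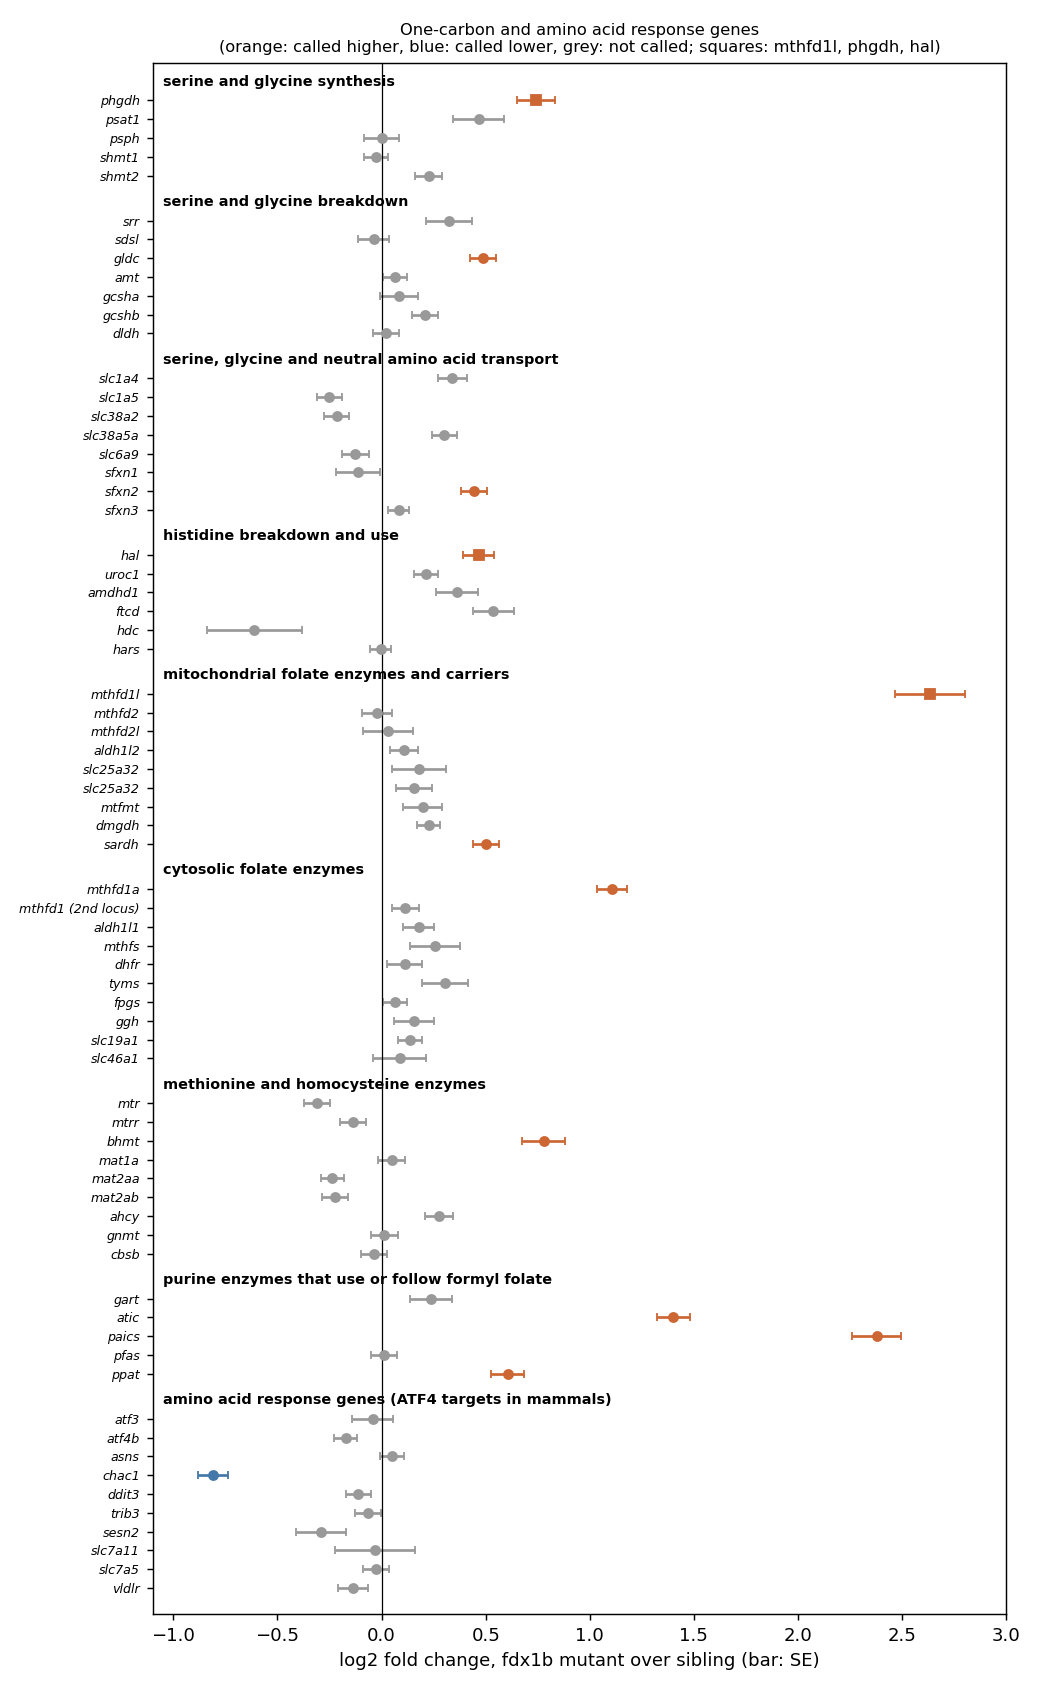
Log2 fold change, mutant over sibling (x axis, bar: SE), of tested genes of 8 one-carbon lists (all but 1) and of a list of amino acid response genes. Orange marks genes called higher, blue lower and grey not called, and squares mark *mthfd1l*, *phgdh* and *hal*. 11 one-carbon genes are orange and none is blue, while *chac1* is the only call among the amino acid response genes, and most grey points lie within 0.5 of 0.

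In mammals, *PHGDH*, *PSAT1* and several folate genes of mitochondria are targets of the transcription factor ATF4, which answers amino acid shortage. A list of 11 other such targets and response factors was therefore set beside the 3 genes. Of the 11 on the list, 10 were tested, and *atf4a* matched no locus. By edgeR's quasi-likelihood test 0 were called higher and 1 lower, against 0.618% and 0.497% of all tested genes. The Wald test of DESeq2 gave the same counts, against 2.15% and 2.18% of the genes it tested. At an unadjusted p under 0.05 in the edgeR fit 0 were higher and 3 lower, against 9.21% and 10.4% of all tested genes. The lower gene was *chac1*, a glutathione-degrading enzyme, with 174.6, 180.9 and 191.5 CPM in siblings and 97.4, 101.8 and 113.3 CPM in mutants. Its genotypes did not overlap, and the log2 fold change was -0.81 ± 0.07 (SE), at an adjusted p of 0.000142 in edgeR's quasi-likelihood test. The asparagine synthetase gene *asns* had 0.05 ± 0.06, *atf4b* had -0.17 ± 0.06, *trib3* had -0.07 ± 0.06 and *ddit3* had -0.11 ± 0.06 (SE). Of the 10, 1 lay above 0, and the median was -0.09.

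In pools of whole larvae, a change in RNA per cell and a change in the number of cells of a type cannot be told apart. *hal* and *ftcd* are expressed strongly in the liver of vertebrates, so the summed level of 12 liver markers was compared with them. It was 2949 to 3638 RPKM in siblings and 3942 to 4018 RPKM in mutants, a ratio of means of 1.21. Most of this rise came from *apoa2*, with means of 1427 RPKM in siblings and 1942 RPKM in mutants, and from *tfa*, with 416 and 546 RPKM. Neither gene was called. Of the 12 markers, 10 lay above 0, with *ambp* called higher (0.56 ± 0.06), whereas *fabp10a*, a defining hepatocyte gene, had -0.12 ± 0.07. *hpx* was called lower (-2.15 ± 0.30), from only 1.45 RPKM in siblings and 0.33 RPKM in mutants. Muscle markers also summed to more in mutants, with 8294 to 8825 RPKM against 6703 to 7568 RPKM, and *tnnt3a* among them was called higher (0.73 ± 0.07). Intestine markers overlapped, with 2563 to 2918 RPKM in siblings and 2775 to 3065 RPKM in mutants. So did skin markers, with 3095 to 3410 RPKM in siblings and 3035 to 3310 RPKM in mutants. Photoreceptor markers had 1044.97 to 1077 RPKM in siblings and 1010 to 1045.03 RPKM in mutants, so their ranges barely met. The skin sum does not show *krt17*, which was called lower (-1.59 ± 0.07), with means of 159 RPKM in siblings and 52.6 RPKM in mutants. It was the only call among the 6 skin markers, of which 3 lay above 0. The 2 exocrine pancreas markers found of 6 summed to less, with 953 to 1112 RPKM in siblings and 787 to 938 RPKM in mutants.

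Expressed per 1000 RPKM of summed liver markers, *mthfd1l* was at 0.293, 0.339 and 0.457 in siblings and 1.93, 2.13 and 1.69 in mutants, a ratio of means of 5.28. *phgdh* was at 2.97, 3.89 and 3.63 in siblings and 5.08, 4.61 and 4.78 in mutants, a ratio of 1.38. Both kept a gap between the genotypes on this scale. *hal* was at 2.61, 2.79 and 2.48 in siblings and 2.71, 3.03 and 3.27 in mutants, a ratio of 1.14, and here the genotypes overlapped, since mutant 1 lay below sibling 2. The summed liver level used as this scale rose mostly through *apoa2* and *tfa*. The part of that level in the value of *hal* was not tested further.

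The named genes whose profile over the 6 pools was closest to that of each gene were listed by the root mean square difference of log2 CPM, centred on the sibling mean, among 23763 named genes. For *mthfd1l* these were *itln2* (0.247), *sdr42e2* (0.261) and *paics* (0.300). For *phgdh* they were a locus named MCOLN3 (1 of many) (0.0589), *plgrkt* (0.0703) and a locus named HAS1 (0.0713). For *hal* they were *slc12a10.1* (0.0427), *poc5* (0.0490) and a locus named KRT18 (1 of many) (0.0554). *paics* was the only one of these that belongs to a one-carbon list. The distance grows with the size of the difference and the spread of a gene, so the values for *mthfd1l* and *hal* are not on an equal footing.

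No other gene had the same counts as *mthfd1l*, *phgdh* or *hal* in all 6 libraries, although 300 tested genes shared their counts with another. In the RefSeq gene order, *hal* on chromosome 25 overlaps *ucmab*, which encodes a matrix protein of cartilage. It is not stated whether the counting used the strand. *ucmab* had 49.3 to 62.2 CPM in siblings and 50.3 to 57.4 CPM in mutants, and with a log2 fold change of -0.10 ± 0.08 (SE) it did not share the direction of *hal*. The gene beside *mthfd1l* on chromosome 20, *akap12b*, had 0.17 ± 0.06, and those on either side of *phgdh* on chromosome 9, *klhl23* and *cfap210*, had -0.11 ± 0.07 and -0.18 ± 0.17. None of these neighbours was called.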

How the data were processed

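Whole-larva total RNA was depleted of ribosomal RNA, made into stranded libraries and sequenced as single-end reads. Reads were aligned by the authors to the GRCz10 assembly with STAR, given as version 2.4.0i in the submitters' processing notes. They deposited uniquely mapped read counts on the exons of each Ensembl locus, not normalized, with the exon length of each locus. The intronic counts were not used here. No column belonged to a sample outside the series (0 columns).

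The tools were edgeR 4.0.16 (with limma 3.58.1) and, as an alternative, DESeq2 1.42.0, run under R 4.3.3. After TMM scaling and removal of low counts by filterByExpr, genotypes were compared in edgeR by its quasi-likelihood F test, with no covariate, with Benjamini-Hochberg adjustment over all tested genes. A call needed an adjusted *p* of at most 0.01 and a log2 fold change of at least 0.25 in size. CPM and RPKM used TMM-scaled library sizes, and log2 CPM a prior count of 2. Names came from the study's tables and a reference gene-name table, which together named 26073 of 31388 loci. Gene order and chromosomes came from RefSeq on GRCz12tu, which differs from the build of the counts, so no coordinates are given. The members and the gene lists were chosen with earlier results of these data known. The text names the 3 genes, the list genes that were called with the others as values or ranges, and the 3 named genes of closest profile to each. *itln2*, *sdr42e2* and the other close profiles come from that rule, while the neighbours on the chromosome and *fdx1b* were added as checks.

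Alternatives were the size factors of DESeq2, upper-quartile normalization, the Wald test of DESeq2, a minimum of 10 counts in every sample or no filter on low counts, the replicate number as a block, each pool left out in turn, thinning to the smallest total, and a looser threshold. Promoter motifs and sequences were not analysed here. One gene of the cytosolic folate list is counted in the list totals and its own value is not reported here.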

Additional observations from a re-analysis of the deposited data

How the results depend on the processing

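The direction of *mthfd1l*, *phgdh* and *hal* was kept in all alternatives run. The count of called genes was 885 with the Wald test of DESeq2 (440 higher, 445 lower) and 1032 at an adjusted p of at most 0.05 with no fold limit (514 higher, 518 lower), against 296 with edgeR's quasi-likelihood test at the stricter threshold. One-carbon genes called lower numbered 1 with DESeq2 and 3 at the looser threshold, against 0, and those called higher 16 in both, against 11. With 1 pool left out, called genes ranged from 109 to 622, those higher from 49 to 280, those lower from 59 to 342, and one-carbon genes called higher from 4 to 13 and lower from 0 to 0. The cause of these moves was not tested. The replicate number as a block gave 95 genes called higher in place of 164, 107 lower, 11 one-carbon genes higher and no call for *hal*. Deviations from the group means correlated at -0.141, -0.140 and 0.0907 between same-numbered pools, and at -0.159 to 0.219 between the other pairs. With 3 pools per group, these values cannot tell whether same-numbered pools share an origin, and the labels give only the number. With 3 pools of each genotype, small changes such as those of *psat1*, *uroc1* and *ftcd* lie near the threshold.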
